A study of Zea mays with 14 samples.

Results

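Root hairs are tip-growing outgrowths of single epidermal cells that extend the surface through which a root takes up water and nutrients. Their growth combines targeted delivery of wall material, an actin cytoskeleton, reactive oxygen and calcium signals and a wall that yields at the tip. Hairs can be broken from a frozen root, which lets their RNA be measured apart from that of the other root cells.

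The genes described here are 104 maize (Zea mays) genes with high transcript levels in B73 root hairs. B73 is an inbred line, and their levels in its root and aerial seedling were far lower than in hair. They were taken from 39305 gene identifiers. A gene was included when its mean in B73 root hair was at least 50 CPM (the count divided by the library's total and multiplied by 1000000) and when that mean was at least 32 times the mean in B73 root and at least 32 times the mean in B73 aerial seedling, with 0.1 CPM added to each. In all, 107 genes met these thresholds. The rule also left out 5 named identifiers, 3 of which met them. The 104 genes make up 3.57% of the 2916 genes with at least 50 CPM in B73 root hair. The genes were thus chosen by their measured levels in the B73 hair, root and aerial libraries, and those 3 tissues are described without a test.

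The study sequenced polyA RNA from 3-day-old maize seedlings in 14 libraries, 2 for each of 7 groups. The zmlrl5 libraries came from W22 zmlrl5 knock down root hair and from B73 zmlrl5 knock out root, set against W22 wild type root hair and B73 wild type root. The other groups were B73 root hair, B73 root and B73 aerial seedling, all wild type. Hairs were broken from frozen roots and the stripped root was kept as the root sample. The titles of the wild type roots in the zmlrl5 set say that hairs were removed, while the titles of the zmlrl5 roots do not. The growth protocol names only B73, although the cultivar label of the 4 hair libraries of the zmlrl5 set is W22. Allele, inbred line and tissue therefore change together in the zmlrl5 set, and they cannot be told apart. No identifier was paired with the name zmlrl5 in the sources used here, so the level of the targeted gene was not used to check the labels.

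Only 1 of the 104 genes carries a gene name in the RefSeq gene table, the invertase gene IVR1 (GRMZM2G394450), whose product splits sucrose into glucose and fructose. For 33 genes the table holds 1 entry each, and the other 71 had no match. No pair of the 33 matched genes lay within 10 genes of each other in the table's order by chromosome and start position. None of the 104 is in the lists of tip growth, cell wall and uptake genes described further on, but ABP1 (GRMZM2G117603), ABP2 (GRMZM2G097122) and pht9 (GRMZM2G070087) on those lists are among the 5 identifiers that the rule left out by name, so nothing is read from that absence. The other genes are named here by identifier, with no role.

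Library totals were 12336633 to 27788359 counts, so that 3 counts, the floor used here, correspond to 0.108 to 0.243 CPM. The labelled tissues were compared with marker genes. Of the 4 identifiers on a list of root hair genes, 3 were higher in W22 wild type hair than in B73 wild type root. The other, GRMZM2G099056, was lower, with means of 11.5 and 31.2 CPM (log2 fold change -0.68, SE 0.14, adjusted p = 7.63e-05 in edgeR). The root hair gene rth3 (GRMZM2G377215), which encodes a protein of the COBRA-like family, averaged 103 CPM in W22 zmlrl5 root hair, 104 CPM in W22 wild type root hair, 29.7 CPM in B73 zmlrl5 root and 30.9 CPM in B73 wild type root. The summed level of 3 genes of dividing cells was 0.612 to 6.95 CPM in the 6 hair libraries and 201 to 529 CPM in the 6 root libraries, and 6 identifiers of green shoot genes summed to 2078 and 2086 CPM in aerial seedling. The root cap gene RCP1 set the root groups apart: it had 113 and 118 CPM in B73 root but 0.0540 to 0.648 CPM in the 4 root libraries of the zmlrl5 set. In hair it averaged 59.3 CPM in W22 zmlrl5 and 77.8 CPM in W22 wild type, and had 15.8 to 17.0 CPM in B73, so that it was higher in W22 wild type hair than in B73 wild type root (log2 fold change 7.82, SE 0.18, adjusted p = 1.79e-26 in edgeR), as most of the 104 genes were. Xylem and secondary wall genes summed to 896 to 929 CPM in W22 wild type hair. In B73 wild type root they summed to 270 to 292 CPM. Of 5 tested, 2 were called higher in hair and 3 lower. Green shoot genes summed to 22.5 to 30.9 CPM in that hair and 5.43 to 7.41 CPM in that root. Of 5 tested, 4 were called higher in hair and 0 lower. The part of RCP1 and of these genes in the hair against root result of the 104 genes was not tested. Nothing in the labels says that the 2 libraries of a group came from separate plants, and p-values measure only the spread between these libraries.

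In B73 root hair the 104 genes together made up 10.3% and 10.7% of all counts. Their share was 0.158% and 0.141% in stripped B73 root, and it was 0.0184% and 0.0156% in aerial seedling. The median gene had 257 CPM in root hair, with a range of 51.6 to 9715 CPM, and 25 genes were at 1000 CPM or more. The same median was 3.68 CPM in root and 0.332 CPM in aerial seedling, where 73 genes averaged under 1 CPM and 6 had no count in either library. Root levels were low only relative to hair for many genes. In B73 root 8 genes averaged under 1 CPM, 33 averaged 10 CPM or more and 10 averaged 50 CPM or more.

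**Figure D1:**
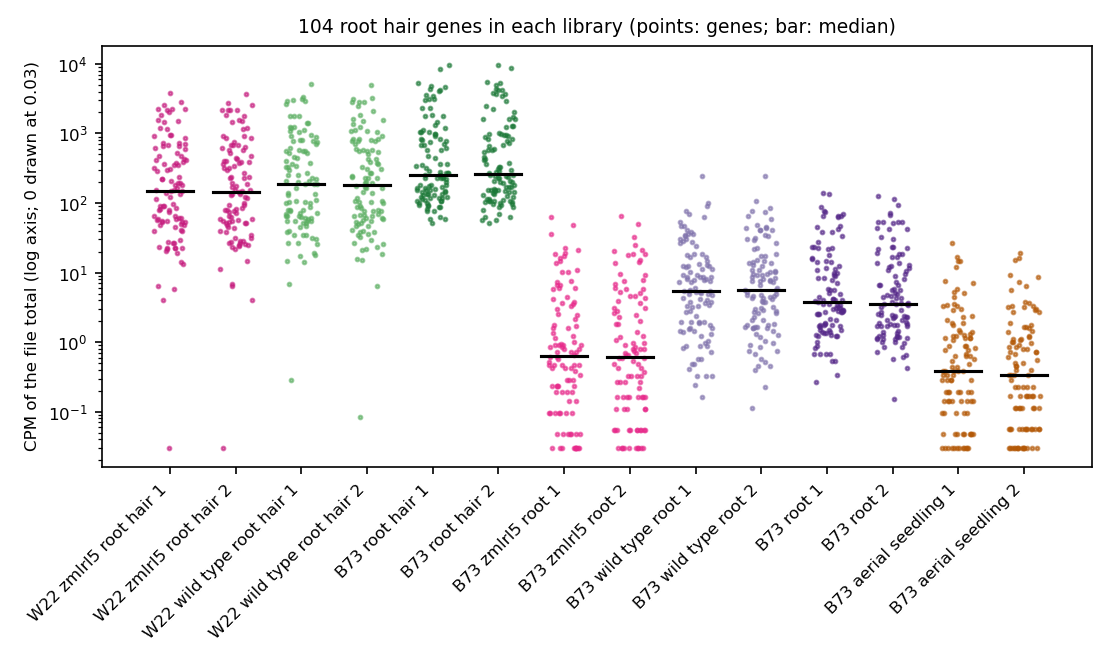
Levels of the 104 genes in each of the 14 libraries, in CPM on a log axis. Points are genes and bars are medians, and a gene with no count is drawn at 0.03 CPM. The clouds of the 6 hair libraries stand above those of the root and aerial libraries, and the B73 zmlrl5 root medians, 0.639 and 0.621 CPM, lie near those of aerial seedling.

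A few genes held most of the signal. The 12 genes with the highest root hair means held 5.89% and 6.16% of all counts in B73 root hair, more than the other 92 genes together. GRMZM5G886185 led with 9739.6 and 9691 CPM in B73 root hair, against 133 and 115 CPM in stripped B73 root and 3.42 and 3.77 CPM in aerial seedling. GRMZM5G826700 followed with 8488 and 8722 CPM in root hair, against 87.4 and 66.2 CPM in root and 3.33 and 2.70 CPM in aerial seedling. The remaining 10 of these genes, among them GRMZM2G010640, GRMZM2G156257, GRMZM2G017011 and GRMZM2G129935, averaged 3307 to 5128 CPM in root hair. Of the 12, GRMZM2G156684 had the highest aerial level, 14.6 and 8.66 CPM.

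The root level of most genes was a similar small share of the hair level. The B73 root mean was 1.39% of the B73 root hair mean for the median gene, and the middle range from the first to the last quartile was 0.986% to 2.01%. For 74 of the 104 genes the root mean was between 1% and 3% of the hair mean. The rule alone caps this share near 3%, and the lower end was free. In bulk RNA, fewer cells of a type and less RNA per cell cannot be told apart.

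Values ran close to each threshold on both sides. The genes just inside the hair threshold were GRMZM2G027522, GRMZM2G147683 and GRMZM2G128771 at 51.6, 58.0 and 59.7 CPM, and the genes just outside it that met the other conditions were GRMZM2G473274, GRMZM2G073738 and GRMZM2G061897 at 48.7, 44.3 and 42.1 CPM. Over root, the ratio was 32.4, 32.5 and 32.5 for the 3 genes just inside, GRMZM2G179733, GRMZM2G021482 and GRMZM2G101916, and 31.9, 31.8 and 31.7 for the 3 just outside, GRMZM2G028731, GRMZM2G159559 and GRMZM2G340313. Over aerial seedling, GRMZM2G074987 at 32.3, IVR1 at 39.5 and GRMZM2G474039 at 52.0 were just inside, and GRMZM2G163826, GRMZM5G842695 and GRMZM2G059392 at 30.5, 29.0 and 25.6 were just outside. Failing only 1 condition were 46 genes for the hair level, 181 genes for the ratio over root and 19 genes for the ratio over aerial seedling.

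**Figure D2:**
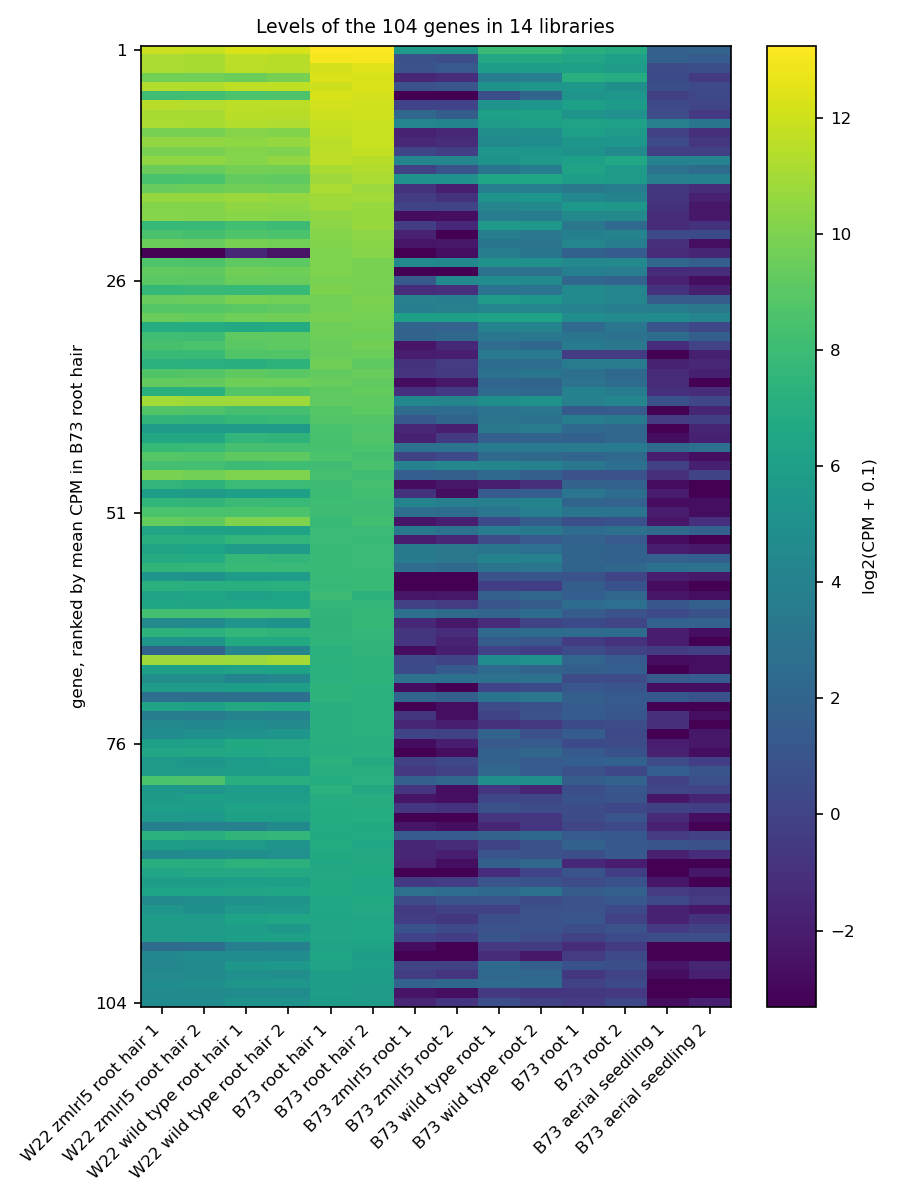
Levels of the 104 genes (rows, ranked by their B73 root hair mean) in the 14 libraries (columns), as log2(CPM + 0.1). The 6 hair columns are bright almost throughout, with a dark row for GRMZM2G128029 in the 4 W22 columns, and the B73 zmlrl5 root columns are darker than those of B73 wild type root in most rows.

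The zmlrl5 set gives root hair and root libraries whose values the rule did not use, although the genes were chosen with earlier results known. The rule also set root hair against root, so higher levels in hair here repeat its own kind of measure. In the wild type pair, W22 root hair against B73 root, 102 of the 104 genes were higher in hair (background 36.5% of the 25303 genes tested), 1 was lower (background 44%) and 1 was not called. These calls come from edgeR's quasi-likelihood test with Benjamini-Hochberg adjustment at 0.05. The median log2 fold change of the 104 genes was 5.95, against -0.23 over all genes tested. All 104 genes passed the filter on low counts. They had more counts in the W22 hair libraries than in the roots of the set, except GRMZM2G128029, which had 7 counts in the wild type hair libraries, against 305 in the wild type root libraries. These counts are not scaled for depth. In mean CPM, GRMZM2G120621 was also lower in wild type hair, at 6.69 CPM, against 9.12 CPM in wild type root. Of the other 2811 tested genes with at least 50 CPM in B73 root hair, 75.6% were higher in W22 hair, with a median of 1.13. Across all 14 libraries, 102 of the 104 genes had every one of the 6 hair libraries above every one of the 8 other libraries (background 7.67% of the genes tested). The rule's own B73 libraries are among these 14, so nothing is read from that count.

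The 6 genes with the largest wild type differences averaged under 5 CPM in B73 wild type root. GRMZM2G058474 had 255 and 248 CPM in W22 wild type root hair, against 0.162 and 0.399 CPM in B73 wild type root (log2 fold change 10.41, SE 0.18, adjusted p = 1.25e-29). GRMZM2G001219 had 1059.6 and 1048 CPM in hair, against 1.22 and 2.91 CPM in root (log2 fold change 9.65, SE 0.15, adjusted p = 1.14e-30). The hair and root libraries of both genes were far apart, with no overlap. GRMZM2G163774, GRMZM2G116452, GRMZM2G071327 and GRMZM2G092679 came next, with log2 fold changes of 8.78, 8.35, 8.32 and 8.07.

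In the mutant pair, W22 zmlrl5 root hair against B73 zmlrl5 root, 103 genes were higher in hair (background 36.6%) and 0 were lower (background 44.1%). With 0 calls in that direction, 0 genes had an unadjusted p under 0.05 in edgeR, and DESeq2 also called 0. The median log2 fold change was 8.01, against -0.22 over all genes tested. The genes with the largest called differences, GRMZM2G143473, GRMZM2G129935, GRMZM2G149273, GRMZM2G071327, GRMZM2G329757 and GRMZM2G116452, had at most 3 counts over both zmlrl5 root libraries. GRMZM2G143473 had 599 and 575 CPM in zmlrl5 hair and no count in zmlrl5 root. Set against a floor of 3 counts over both libraries, the 7 genes with no count in zmlrl5 root were between at least 307-fold and at least 7765-fold higher in zmlrl5 hair.

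W22 root hair held less of this signal than B73 root hair. The 104 genes made up 5.83% and 5.77% of counts in W22 wild type root hair, against 10.3% and 10.7% in B73 root hair. The W22 mean was lower than the B73 mean for 92 genes and higher for 12. The median gene had 0.596 of its B73 level in W22, 46 genes were under 50% of it, 85 still averaged 50 CPM or more, and 4 had over 2 times the B73 level. The rule picked genes for a high B73 level, so a lower level elsewhere is built into the choice, and these values are a description with no test. B73 root hair is also not part of the zmlrl5 set. Inbred line and set of libraries thus change together between these hair groups, and they cannot be told apart. The log2 means of the 104 genes in the W22 and B73 hair libraries had a Pearson correlation of 0.739 and a Spearman correlation of 0.806, over genes that share each library's depth.

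**Figure D3:**
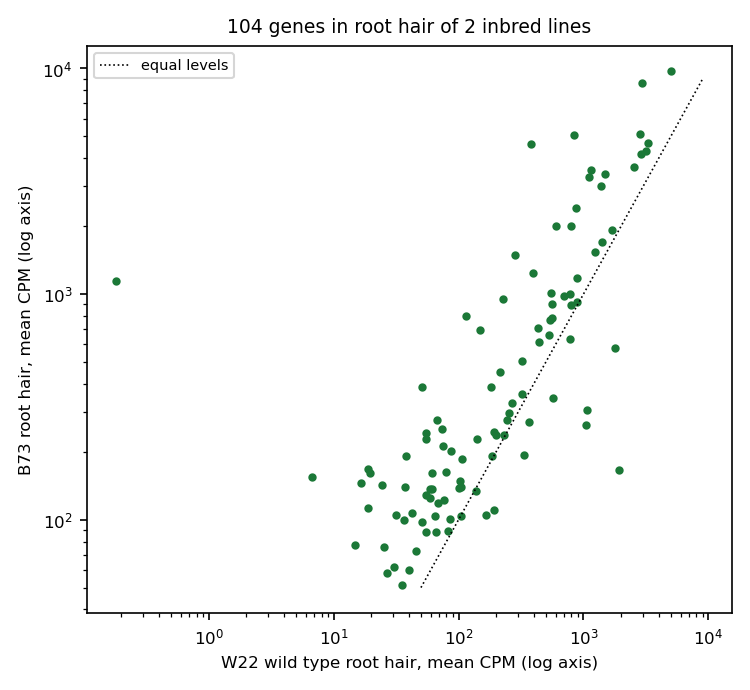
Mean CPM of the 104 genes in hair of W22 wild type (x axis) and of B73 (y axis), from 2 libraries each on log axes, with the line of equal levels. Most points lie on the B73 side of the line, GRMZM2G128029 lies far to the left, and GRMZM2G029144 lies on the W22 side.

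GRMZM2G128029 was the exception in W22. It had no count in either W22 zmlrl5 root hair library and 0.282 and 0.0827 CPM in W22 wild type root hair, against 1058 and 1229.7 CPM in B73 root hair. Among the B73 roots it had 0 and 0.0540 CPM in zmlrl5 root, 12.6 and 8.55 CPM in wild type root of the same set and 3.45 and 2.68 CPM in the other B73 roots. All 4 W22 libraries were thus near 0, while both B73 hair libraries were high and the wild type B73 roots were in between. It was the 1 gene lower in W22 wild type root hair than in B73 wild type root (log2 fold change -5.17, SE 0.50, adjusted p = 1.28e-10). Whether the W22 genome carries this gene was not tested.

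Other genes with low W22 hair levels were still detected. GRMZM2G120621 had 6.94 and 6.45 CPM in W22 wild type root hair, against 165 and 146 CPM in B73 root hair. In B73 wild type root it had 8.67 and 9.57 CPM, above both W22 hair libraries in CPM, while TMM scaling turned the direction to slightly higher in hair (log2 fold change 0.29, SE 0.21, adjusted p = 0.196). It was the 1 gene not called in that pair. GRMZM2G363552, GRMZM2G040050, GRMZM2G139834 and GRMZM2G019443 averaged 14.7, 16.5, 18.8 and 19.0 CPM in W22 wild type root hair, against 77.3, 145, 168 and 112 CPM in B73 root hair. GRMZM2G129935, one of the 12 highest genes in B73 root hair, had 381 and 385 CPM in W22 wild type root hair, against 4801 and 4417 CPM in B73 root hair.

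The 4 genes over 2 times their B73 level were GRMZM2G029144, GRMZM2G001219, GRMZM2G163774 and GRMZM5G865811. GRMZM2G029144 and GRMZM5G865811 were singled out after their values were seen. GRMZM2G029144 had 1752 and 2081 CPM in W22 wild type root hair, against 162 and 170.2 CPM in B73 root hair. GRMZM2G001219 had 1059.6 and 1048 CPM in W22, against 228 and 299 CPM in B73. In both genes the W22 and B73 hair libraries did not overlap.

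The zmlrl5 knock out root, compared with wild type root of the same set, was the zmlrl5 contrast with the most called genes among the 104. Of the 104 genes, 82 were lower in zmlrl5 root (background 4.09%), 74 of them by at least 2-fold, and 0 were higher (background 4.27%). In the direction with 0 calls, 1 gene had an unadjusted p under 0.05 in edgeR, and DESeq2 called 0. The median log2 fold change was -2.63, against 0.02 over all genes tested, and -2.43 when the 7 genes with no count in zmlrl5 root were set at their bound. Of the other 2811 tested genes with at least 50 CPM in B73 root hair, 12.1% were lower and 6.87% were higher in zmlrl5 root, with a median of -0.02.

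Summed over the 104 genes, the share of all counts was 0.0435% and 0.0447% in the zmlrl5 root libraries. It was 0.163% and 0.168% in wild type root of the same set and 0.158% and 0.141% in the other B73 roots. Both zmlrl5 root libraries lay below both wild type root libraries of the set, in CPM, for 94 of the 104 genes (background 27.3%). The median gene in zmlrl5 root was at 14.2% of its wild type root level. The zmlrl5 root level was under 1% of wild type for 12 genes, 1% to 5% for 24, 5% to 20% for 19, 20% to 50% for 25, 50% to 100% for 19 and 100% or more for 5.

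**Figure D4:**
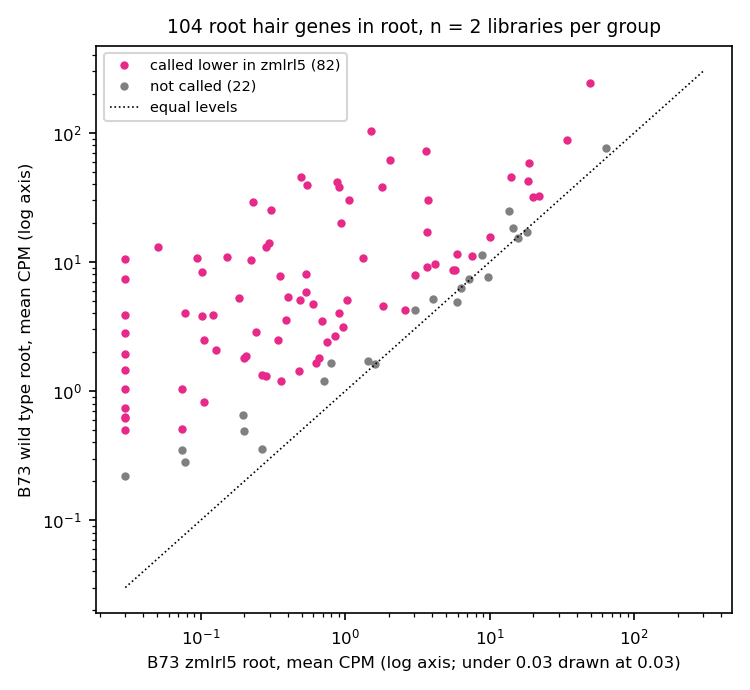
Mean CPM of the 104 genes in B73 zmlrl5 root and in B73 wild type root (2 libraries each, log axes), with means under 0.03 CPM in zmlrl5 root drawn at 0.03. The 82 genes called lower in zmlrl5 root lie above the line of equal levels, and the 22 genes not called lie on or near it or at low levels.

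The genes are described here in 3 sets by how much of their level zmlrl5 root held. The first set had a very small share of its wild type level there. GRMZM5G826700 had 1.61 and 1.40 CPM in zmlrl5 root, against 100.2 and 106 CPM in wild type root (log2 fold change -6.04, SE 0.13, adjusted p = 4.39e-25). GRMZM2G058622 had 0.189 and 0.270 CPM in zmlrl5 root, against 28.9 and 29.7 CPM in wild type root (log2 fold change -6.92, SE 0.20, adjusted p = 4.24e-22). In both genes every zmlrl5 library was far below every wild type library. GRMZM2G143473 had no count in either zmlrl5 root library, against 7.21 and 7.52 CPM in wild type root, which makes it at least 97.7-fold lower by a floor of 3 counts over both libraries. GRMZM2G129935 also had no count in zmlrl5 root, against 1.46 and 4.16 CPM in wild type root, and was at least 40.2-fold lower. The 2 wild type libraries of GRMZM2G129935 differed from each other more than those of GRMZM2G143473.

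Further genes at the edge of detection in zmlrl5 root were GRMZM2G170034, GRMZM2G149273, GRMZM2G128029 and GRMZM2G043802. GRMZM2G170034 had no count, against 1.78 and 2.11 CPM in wild type root, and was at least 26.1-fold lower. GRMZM2G149273 had 2 counts in zmlrl5 root and 388 in wild type root, a depth-scaled ratio of wild type over zmlrl5 of 257 with an exact 95% counting interval of 71.2 to 2124. GRMZM2G128029 had 1 count in zmlrl5 root and 305 in wild type root, a ratio of 404 with an interval of 72.6 to 15976. GRMZM2G043802 had 1 and 118 counts, a ratio of 156 with an interval of 28.1 to 6181. These intervals cover counting error only. All 4 of these genes passed edgeR's test with Benjamini-Hochberg adjustment in this contrast.

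The second set was lower but still well detected. GRMZM5G886185, the most abundant of the 104, had 49.0 and 49.9 CPM in zmlrl5 root, against 246 and 241 CPM in wild type root (log2 fold change -2.26, SE 0.07, adjusted p = 9.17e-21). GRMZM2G156684 had 19.2 and 18.0 CPM in zmlrl5 root, against 52.9 and 64.5 CPM in wild type root (log2 fold change -1.62, SE 0.10, adjusted p = 1.02e-13). GRMZM2G082886 had 35.4 and 32.7 CPM in zmlrl5 root, against 89.6 and 85.2 CPM in wild type root (log2 fold change -1.31, SE 0.08, adjusted p = 3.31e-13). In these 3 genes the zmlrl5 and wild type libraries did not overlap, and the zmlrl5 levels were well above the floor.

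All 12 of the highest root hair genes were lower in zmlrl5 root, but to very different degrees. GRMZM2G156684 fell least, with a log2 fold change of -1.62, and GRMZM2G129935, with no count, has no finite ratio. Between them GRMZM2G436856, GRMZM2G017011 and GRMZM2G010640 had log2 fold changes of -4.25, -4.37 and -4.87. GRMZM2G112619, GRMZM2G156257, GRMZM2G073260 and GRMZM2G427903 had -5.34, -5.48, -5.52 and -6.30 on the same scale. The SEs of these 7 values were 0.12 to 0.26.

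The third set, the 22 genes not called, included genes with nearly the same level in both roots. IVR1 was the most abundant of the 104 in zmlrl5 root, with 63.9 and 64.1 CPM, against 76.1 and 77.0 CPM in wild type root (log2 fold change -0.22, SE 0.08, adjusted p = 0.112). Its zmlrl5 libraries lay just below the wild type ones without reaching a call. Without either W22 zmlrl5 root hair library, whose removal changes the shared dispersion, the adjusted p was 0.0239 or 0.0226. GRMZM2G073359 had 16.1 and 20.4 CPM in zmlrl5 root, against 18.6 and 15.4 CPM in wild type root, and GRMZM2G409309 had 17.1 and 14.4 CPM, against 13.2 and 17.4 CPM. The libraries of both genes overlapped, and both were singled out after their values were seen. GRMZM2G018353 had 10.1 and 9.45 CPM in zmlrl5 root, against 8.67 and 6.67 CPM in wild type root (log2 fold change 0.42, SE 0.15, adjusted p = 0.0809). Others among the 22 were too low for a call, such as GRMZM2G058474 with 3 counts in zmlrl5 root and 9 in wild type root, a depth-scaled ratio of wild type over zmlrl5 of 3.98 with an exact 95% counting interval of 1.36 to 19.3.

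The summed level in zmlrl5 root was concentrated in few genes. The 13 genes that averaged 10 CPM or more in zmlrl5 root held 70.9% of the summed level of the 104 genes there. They were picked by their level in zmlrl5 root, so a large share there is built in. In wild type root the same 13 genes held 42.8%. GRMZM2G008029 was among the 13 through 1 library, with 2.42 and 24.7 CPM in zmlrl5 root. The zmlrl5 root levels of the 104 genes correlated with their zmlrl5 hair levels at 0.357 by Spearman (0.37 by Pearson on log2 means), while wild type root and wild type hair correlated at 0.735 (0.678 by Pearson). The zmlrl5 root levels correlated with the aerial seedling levels at 0.551 by Spearman (0.622 by Pearson). These correlations run over 104 genes of the same libraries and are given as a description.

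Markers moved unevenly beside this change. The root hair gene rth3 had 32.6 and 26.9 CPM in zmlrl5 root, against 28.2 and 33.7 CPM in wild type root (log2 fold change -0.02, SE 0.12, adjusted p = 0.975 in edgeR). GRMZM2G426953, entered beside rth3 in the list of root hair genes, had 47.7 and 42.8 CPM in zmlrl5 root, against 38.4 and 37.8 CPM in wild type root (log2 fold change 0.29, SE 0.10, adjusted p = 0.0596). GRMZM2G436299, also on that list, had no count in zmlrl5 root, against 2.59 and 3.65 CPM in wild type root, and was at least 42.4-fold lower. Thus 1 of the 4 genes on the list was called lower and 0 were called higher (1 at an unadjusted p under 0.05 in edgeR, 0 by DESeq2), and their summed level was 102 to 106 CPM in zmlrl5 root and 101 to 106 CPM in wild type root. The gene names of the 3 identifiers beside rth3 are not given in the reference table used here.

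Of the other cell types, RCP1 of the root cap had 0.0947 and 0.0540 CPM in zmlrl5 root, against 0.648 and 0.513 CPM in wild type root, and was called lower (log2 fold change -2.74, SE 0.67, adjusted p = 0.00606 in edgeR). The 3 genes of dividing cells summed to 201 to 202 CPM in zmlrl5 root and 226 to 231 CPM in wild type root, with 0 of 3 called by edgeR, 0 at an unadjusted p under 0.05 and 0 by DESeq2. The 6 identifiers of xylem and secondary wall genes summed to 335 to 354 CPM in zmlrl5 root and 270 to 292 CPM in wild type root, with 2 of 5 tested called higher and 1 lower by edgeR and 1 and 1 by DESeq2. Of the green shoot genes 2 of 5 tested, Cab-m7 and psan1, were called higher, and their sum was 17.7 to 20.7 CPM in zmlrl5 root and 5.43 to 7.41 CPM in wild type root. The part of these differences, and of any difference in hair removal, in the result for the 104 genes was not tested.

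In root hair itself the zmlrl5 knock down went with small differences. Of the 104 genes, 59 were lower in W22 zmlrl5 root hair than in W22 wild type root hair (background 12.4%), 6 of them by at least 2-fold. Another 5 were higher (background 10.1%), 1 of them by at least 2-fold, and 40 were not called. The median log2 fold change was -0.31, against -0.01 over all genes tested, and the zmlrl5 level was 50% to 100% of wild type for 79 genes. Of the other 2811 tested genes with at least 50 CPM in B73 root hair, 26.6% were lower and 17.1% were higher. The 104 genes together made up 4.86% and 4.76% of counts in zmlrl5 hair, against 5.83% and 5.77% in wild type hair. The count of lower genes depends on the fit: with all 14 libraries in 1 model, 29 were lower and 3 were higher.

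The clearest losses in hair were in genes outside the top 12. GRMZM2G067654 had 147 and 152 CPM in zmlrl5 hair, against 452 and 436 CPM in wild type hair (log2 fold change -1.59, SE 0.08, adjusted p = 3.32e-16). GRMZM2G151425 had 284 and 274 CPM in zmlrl5 hair, against 559 and 559 CPM in wild type hair (log2 fold change -1.02, SE 0.07, adjusted p = 4.05e-12). The zmlrl5 libraries of both genes were close to each other and well below the wild type ones. GRMZM2G139834 had 4.04 and 4.03 CPM in zmlrl5 hair, against 18.9 and 18.7 CPM in wild type hair (log2 fold change -2.24, SE 0.20, adjusted p = 5.01e-10). GRMZM2G159752, GRMZM2G363552 and GRMZM2G049654 fell by 1.45, 1.30 and 1.08 on the log2 scale, and all 6 of these genes were also lower in zmlrl5 root. For GRMZM2G139834, which has few counts in root, that root call was lost without zmlrl5 root replicate 1 (adjusted p = 0.0765).

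Among the 12 highest hair genes, 9 were lower in zmlrl5 hair, by 0.21 to 0.44 on the log2 scale. In the fit of all 14 libraries only GRMZM5G886185 and GRMZM5G826700 of these 9 were called. GRMZM5G886185 had 3827 and 3687 CPM in zmlrl5 hair, against 5137 and 4931 CPM in wild type hair (log2 fold change -0.44, SE 0.06, adjusted p = 4.48e-06). The 3 not called were GRMZM2G156257, GRMZM2G112619 and GRMZM2G427903. GRMZM2G112619 had 2803 and 2772 CPM in zmlrl5 hair, against 3164 and 3112 CPM in wild type hair (log2 fold change -0.19, SE 0.07, adjusted p = 0.0513). IVR1 had 696 and 637 CPM in zmlrl5 hair, against 770.0 and 808 CPM in wild type hair (log2 fold change -0.26, SE 0.07, adjusted p = 0.00928). The call of IVR1 was lost without wild type hair replicate 2 (adjusted p = 0.0551) and without zmlrl5 hair replicate 2 (0.0547), and that of GRMZM2G156684 without wild type hair replicate 1 (0.0851). The call of GRMZM2G156684 was also lost with DESeq2's size factors, and that of GRMZM2G129935 with DESeq2's Wald test. GRMZM2G112619 was called lower without zmlrl5 hair replicate 1 (adjusted p = 0.00139) and without any 1 of the 4 root libraries (0.0326 to 0.05).

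The 5 genes higher in zmlrl5 hair were led by GRMZM2G138450, which had 385 and 386 CPM, against 136 and 138 CPM in wild type hair (log2 fold change 1.48, SE 0.08, adjusted p = 2.32e-15). In root the same gene had 3.27 and 4.27 CPM in zmlrl5, against 30.6 and 30.1 CPM in wild type (log2 fold change -2.98, SE 0.13, adjusted p = 1.03e-17). The hair and root contrasts of this gene thus went in opposite directions, each without overlap between libraries. GRMZM2G018441, GRMZM2G018353, GRMZM2G144420 and GRMZM2G169690 were higher in zmlrl5 hair by log2 fold changes of 0.55, 0.54, 0.39 and 0.36. Of these, GRMZM2G144420 and GRMZM2G169690 were lower in zmlrl5 root, with log2 fold changes of -2.23 and -0.58. Some of these calls depend on the fit or rest on single libraries. The hair call of GRMZM2G144420 was lost with DESeq2's Wald test and in the fit of all 14 libraries. The latter fit also lost the hair and root calls of GRMZM2G169690. GRMZM2G018441 in hair had an adjusted p of 0.0971 without wild type hair replicate 1 and 0.0504 without zmlrl5 hair replicate 1. GRMZM2G144420 in hair had 0.34 without wild type hair replicate 2 and 0.402 without zmlrl5 hair replicate 1. Without wild type root replicate 2, the adjusted p in root was 0.155 for GRMZM2G144420 and 0.306 for GRMZM2G169690. Beside the hair changes, RCP1 was lower in zmlrl5 hair (log2 fold change -0.41, SE 0.10, adjusted p = 0.00169 in edgeR). Green shoot genes summed to 27.5 to 92.1 CPM in zmlrl5 hair and 22.5 to 30.9 CPM in wild type hair, with 3 of 5 tested called higher by edgeR and 1 of 6 by DESeq2. Xylem and secondary wall genes summed to 498 to 538 CPM in zmlrl5 hair and 896 to 929 CPM in wild type hair, with 2 of 5 called lower. Their part in the hair result was not tested.

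The difference between the 2 zmlrl5 effects was tested directly, as the effect in hair minus the effect in root. It was higher for 73 of the 104 genes (background 6.52%) and lower for 0 (background 8.11%). In the direction with 0 calls, 1 gene had an unadjusted p under 0.05 in edgeR, and DESeq2 called 0. The median difference was 2.10 on the log2 scale, against -0.04 over all genes tested. By call, 49 genes were lower in both tissues and 10 were called in neither. Another 30 were lower in root and not called in hair, while 10 were lower in hair and not called in root. Of the rest, 3 were higher in hair and lower in root, and 2 were higher in hair and not called in root. These joint counts were not set beside a share over all genes tested, so nothing is read from their sizes. The knock down and the knock out, the inbred lines W22 and B73, and hair and root differ between the 2 contrasts at once and cannot be told apart.

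**Figure D5:**
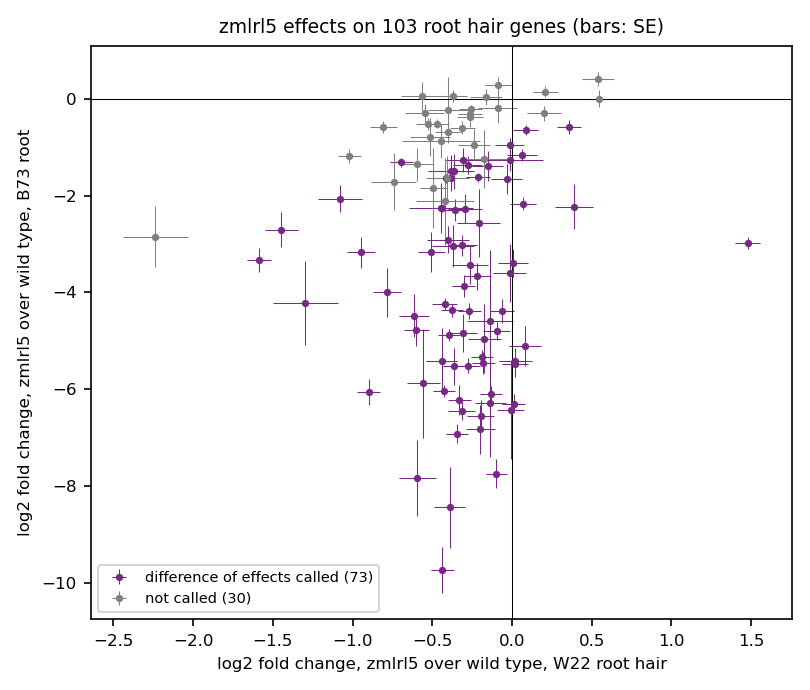
Log2 fold change of zmlrl5 over wild type in W22 root hair (x axis) and in B73 root (y axis) for 103 of the 104 genes, with SE bars. GRMZM2G128029, nearly without counts in W22, is left out. The 73 genes whose 2 effects differed by the test lie mostly low on the y axis within a narrow band of x, and GRMZM2G138450 lies alone at the right.

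The genes with the 6 largest called differences had few or no counts in zmlrl5 root. They were GRMZM2G143473 at 9.30, GRMZM2G129935 at 8.05, GRMZM2G149273 at 7.65, GRMZM2G170034 at 7.24, GRMZM2G043802 at 6.63 and GRMZM2G058622 at 6.57. The 3 of these with no count in zmlrl5 root have values that depend on the fit's prior count and are not bounds. At higher counts, GRMZM5G826700 had a difference of 5.62 (SE 0.15, adjusted p = 3.7e-22 in edgeR) and GRMZM2G138450 had 4.46 (SE 0.15, adjusted p = 2.45e-20).

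Lists of named genes of tip growth, wall and uptake, 3 of which the rule left out by name, were counted in the same zmlrl5 root contrast. The background in this contrast was 4.09% lower and 4.27% higher, so 0 calls in a list of 9 genes is near that share. Of 9 ROP GTPase and NADPH oxidase genes, from families that act at the growing tip, 0 were lower and 0 higher by edgeR. In W22 wild type hair against B73 wild type root, 4 of these 9 were higher (background 36.5%) and 4 lower (background 44%). Among the higher ones, rbohC averaged 22.5 CPM in that hair and 25.5 CPM in that root, and rop9 averaged 46.3 and 60.2 CPM. The CPM of rbohC and rop9 was thus lower in hair, and TMM scaling turned the direction. Of 15 tested genes of actin, profilin and actin-depolymerizing factor, 2 were lower, both of them genes the rule left out, ABP1 and ABP2, with no count in zmlrl5 root, and 0 were higher. Of 9 tested expansin genes, whose products loosen walls, 0 were lower and 6 higher, among them expB7 with 337 and 328 CPM in zmlrl5 root, against 134 and 133 CPM in wild type root (log2 fold change 1.36, SE 0.09, adjusted p = 4.15e-13). In W22 wild type hair against B73 wild type root, 8 of these 9 expansin genes were lower and 1 higher. In that hair expB7 averaged 3.08 CPM. Of 14 tested cellulose synthase genes and relatives 0 were lower and 3 higher in zmlrl5 root. In that hair against that root, 13 of these 14 were lower and 1 higher. The 1 higher, CesA-9, averaged 30.4 CPM in that hair and 31.0 CPM in that root, so its call came with TMM scaling. Of 7 class III peroxidases 2 were lower and 1 higher in zmlrl5 root. Where a direction had 0 calls in these lists and those of uptake genes, edgeR's unadjusted p was under 0.05 for 1 actin, profilin or actin-depolymerizing factor gene and for 0 others, and DESeq2 called 0. In zmlrl5 root DESeq2 called 4 of 12 expansin genes higher, and 2 of 15 cellulose synthase genes and relatives. Of the 7 peroxidases it called 3 lower and 1 higher.

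Among uptake genes, all 3 tested phosphate transporters were lower in zmlrl5 root, including pht9, which the rule left out. The largest change was in pht2, with 21.5 and 19.0 CPM in zmlrl5 root, against 65.2 and 71.9 CPM in wild type root (log2 fold change -1.72, SE 0.10, adjusted p = 1.82e-14 in edgeR). Of 3 plasma membrane proton pump genes 1 was lower, mha4, with 547 and 532 CPM in zmlrl5 root, against 731 and 774 CPM in wild type root (log2 fold change -0.44, SE 0.08, adjusted p = 9.31e-05). Of 6 tested nitrate transporter genes 1 was lower and 0 higher, of 28 aquaporins 3 were lower and 1 higher, and of 20 HAK potassium transporters 1 was lower and 1 higher. DESeq2 called 4 of 29 aquaporins lower and 1 higher. The median log2 fold changes of these uptake lists were -1.60 for phosphate transporters, -0.15 for proton pumps, -0.42 for nitrate transporters, 0.01 for aquaporins and 0.11 for HAK transporters, against 0.02 over all genes tested.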

How the data were processed

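Gene counts from 14 polyA RNA-seq libraries were used as the authors deposited them, 1 file per library. TopHat2, HTSeq and DESeq are named per the submitters' processing notes. The genome build, the annotation release and the strand setting are not given in the sources. RNA was extracted with TRIzol per the labels' protocols and with a Qiagen kit per the design text. Summary rows were dropped from 6 files, where reads with no feature were 3.58% to 6.71% of the total. CPM is the count over the file total. No library pair was a duplicate: replicate log2 CPM values had Pearson correlations of 0.989 to 0.997. Floors of 3 counts and intervals cover counting error only.

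The members and gene lists were chosen with earlier results of these data known. The 8 libraries of the zmlrl5 set were fitted together in edgeR 4.0.16 (R 4.3.3) with filterByExpr, TMM scaling, quasi-likelihood tests and Benjamini-Hochberg adjustment at 0.05 over all 25303 genes tested. TMM factors were 0.769 to 0.797 in hair and 1.24 to 1.32 in root libraries. Alternatives were DESeq2 1.42.0, its size factors, upper-quartile scaling, no filter, all 14 libraries, a replicate block and leaving out each library. The fit was tested on simulated data.

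Genes named are the 12 with the highest B73 root hair mean and those with a gene name. Also named are the 6 called with the largest change per contrast and direction and the 6 lowest in W22 wild type root hair. Added to these are the 6 highest by mean over both root groups of the zmlrl5 set and the 3 on each side of each threshold. Gene names come from RefSeq's table for Zm-B73-REFERENCE-NAM-5.0. Its chromosome and start positions were used only to order genes for the neighbour check, and no sequences were used. The list for ground tissue and stele matched no identifier.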

Additional observations from a re-analysis of the deposited data

Results flagged for a closer look

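The zmlrl5 effects in W22 root hair and in B73 root differed, by the test of the difference itself in edgeR, for 73 of the 104 genes, all with the higher value in hair. The 6 largest of the differences named were 9.30 for GRMZM2G143473, 8.05 for GRMZM2G129935, 7.65 for GRMZM2G149273, 7.24 for GRMZM2G170034, 6.63 for GRMZM2G043802 and 6.57 for GRMZM2G058622, on the log2 scale as the effect in hair minus the effect in root. In 3 genes the effects had opposite signs and each was called in the main fit. The difference was 4.46 for GRMZM2G138450, 2.62 for GRMZM2G144420 and 0.94 for GRMZM2G169690. The hair call of GRMZM2G144420 was lost with DESeq2's Wald test and in the fit of all 14 libraries. For GRMZM2G169690 both the hair and the root call were lost in the fit of all 14 libraries. Allele and inbred line change with the tissue in this comparison.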

How the results depend on the processing

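Among the 104 genes, most calls of the genes named moved little with the processing. The number lower in zmlrl5 root was 82 and ranged from 72 to 87 when each library was left out in turn, with 0 higher throughout. The difference of effects was higher for 63 to 72 genes and lower for 0 to 2 without 1 library. In root hair the counts were less firm: 3 to 5 genes were higher and 52 to 65 lower without 1 library, and the fit of all 14 libraries called 3 higher and 29 lower; the cause was not tested. Without W22 zmlrl5 root hair replicate 1, 3 genes were higher. The hair against root pairs had 102 higher and 1 lower in wild type and 103 higher and 0 lower in zmlrl5 under every alternative run. No called log2 fold change of the 104 genes changed sign under an alternative run, while uncalled ones did for 13 genes in hair, 7 in root and 12 in the difference. Membership depended on scaling: TMM-scaled CPM gave 195 genes, a ratio of 64 gave 53, an offset of 1 CPM gave 93, and leaving out a library gave 104 to 108. Replicate numbers did not pair the libraries, since the deviations of same-numbered libraries correlated at -0.0522 to 0.0379. With the replicate block, 5 genes were higher and 55 lower in hair, 0 and 82 in root, 70 and 0 for the difference, 102 and 1 for the wild type pair and 103 and 0 for the zmlrl5 pair. The block also ended the hair call of GRMZM2G156684. Over all genes, the fit of all 14 libraries called 525 of 27316 lower in zmlrl5 root, against 1034 of 25303 in the main fit. It called 728 higher for the difference, against 1650. Of the genes named, it ended the difference calls of GRMZM2G040050, GRMZM2G049654, GRMZM2G082886, GRMZM2G159752 and GRMZM2G363552. Depth limits the genes with 0 to 3 counts in zmlrl5 root, 7 with none and 11 with 1 to 3, whose fitted log2 values depend on the prior count.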
